A study of Mus musculus with 6 samples.

Results

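The genes described here are the netrin receptors and their close partners in the embryonic mouse cortex. They are 9 genes chosen by symbol from 20367 genes in the joined files: 3 receptors linked to attraction (Dcc, Neo1 and Dscam), the 4 Unc5 genes linked to repulsion (Unc5a, Unc5b, Unc5c and Unc5d) and 2 netrins (Ntn1 and Ntn4). All 9 were found and all 9 were above 0 in every library, and 6 of them averaged at least 10 CPM. Levels are in CPM, obtained by dividing the deposited value by the total of its library and multiplying by 1000000.

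RNA sequencing was done on 6 libraries of sorted cortical cells. The embryos were C57BL/6J, from heterozygous Tbr2(Eomes)-GFP mice bred with homozygous DCX-mRFP mice. Per the labels' protocols, every group was sorted from double-reporter embryos. Cells with both colors were collected as neurons derived from intermediate progenitors (IPN), and cells with red color alone as non-IPN, with 1 library of each on 3 embryonic days (E13.5, E15.5, E16.5). The Tbr2 reporter marks the intermediate progenitor lineage and the doublecortin (DCX) reporter marks young neurons, and the sort defines the populations only by these 2 colors. At E15.5 each library came from 1000000 cells without amplification, and at E13.5 and E16.5 from 10000 cells with amplification of the transcriptome, so a level at E15.5 cannot be told apart from this change of method and was not tested against the other days. The labels do not name the animals behind a library.

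Netrins are secreted proteins that steer growing axons. DCC and neogenin (Neo1) transmit attraction to netrin-1, UNC5 receptors transmit repulsion either alone or together with DCC, and DSCAM is a further netrin receptor that can act beside DCC. In the developing cortex these receptors take part in the choice of axon route, across the corpus callosum or toward subcortical targets, and UNC5D also binds FLRT2 and acts in the migration of young neurons.

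The sorted populations differed in their cell type markers. The 9 markers of glutamatergic projection neurons summed to 3318.5, 4880.3 and 5095.1 CPM in IPN on the 3 successive days, against 505.4, 418.4 and 2524.9 CPM in non-IPN. Markers of GABAergic interneurons, also 9 genes, summed to 27.5 to 72.5 CPM in IPN and 1578.6 to 5285.4 CPM in non-IPN. The defining interneuron genes were at 0 or near it in IPN: Dlx5 was at 0 at E13.5 and Slc32a1 was at 0 at E16.5. Non-IPN also held more of the 9 microglial markers (449.1 to 890.7 CPM, against 1.4 to 5.0 CPM in IPN) and, at E13.5, hemoglobin genes made up 4.92% of the total. Radial glia markers (7 genes) summed to 357.8 to 1176.7 CPM in IPN and 604.8 to 4146.9 CPM in non-IPN, with the highest value of each population at E13.5. The 7 endothelial markers stayed between 0.4 and 5.0 CPM in all 6 libraries. Library totals ran from 12583033 to 32522834 in the deposited values, which were scaled, so the true depth is unknown. In these bulk samples, fewer cells of a type and less RNA per cell cannot be told apart. The part of these cell types in the differences below was not tested.

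Dcc and Neo1 were the most abundant of the 9 genes per kilobase of transcript. In IPN at E13.5 Dcc led with 72.836 CPM per kb, ahead of Neo1 with 32.19 and Unc5d with 9.036. In the 5 other libraries Neo1 stood first and Dcc second: at E16.5, for example, Neo1 had 60.88 and Dcc 39.575 CPM per kb in IPN, and Neo1 had 39.451 and Dcc 27.961 in non-IPN. The third place changed with library, being held by Unc5d in IPN at E13.5, by Unc5c in non-IPN at E13.5, by Unc5a in both populations at E15.5 and by Unc5d in both at E16.5. The lowest place was always held by a netrin, by Ntn4 in IPN at E13.5 and E16.5 and by Ntn1 in the other 4 libraries. With 1 library for each population and day, neighbors in this order could not be tested against each other.

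**Figure D1:**
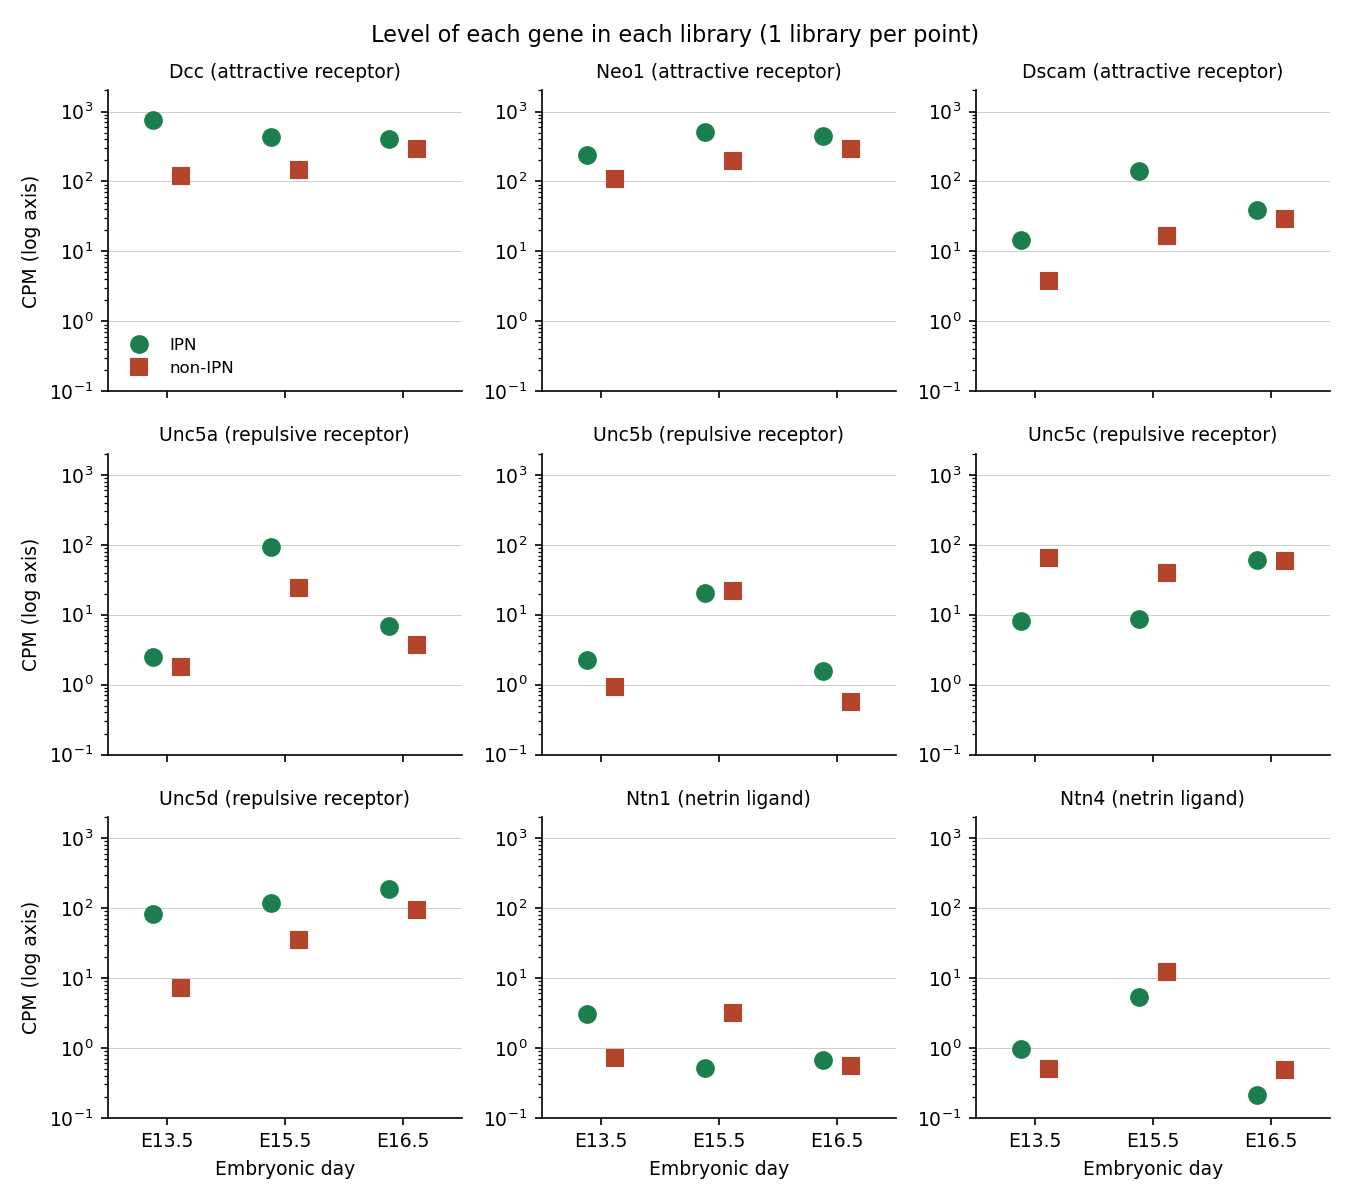
Levels of the 9 genes in CPM on a log axis, 1 point per library, with IPN as circles and non-IPN as squares at each embryonic day. Dcc is the gene whose IPN points (408.54 to 751.89 CPM) all lie above its non-IPN points (121.49 to 288.64 CPM), and Unc5c is the receptor whose non-IPN points lie above IPN at E13.5 and E15.5.

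Between the populations, 4 of the 9 genes were higher in IPN and none was called lower. The 4 were all 3 attractive receptors and Unc5d. Over all genes, 0.982% were called higher in IPN and 2.41% lower (limma on log2(value + 1) with embryonic day as a factor, Benjamini-Hochberg adjusted p under 0.05 over 19561 genes). With no adjustment, limma passed 6 of the 9 genes at 0.05, against 13.6% of all genes, the 6 being the 4 above and also Unc5a, which was higher in IPN, and Unc5c, which was lower. The median log2 difference of the 9 genes was 1.2, against -0.02 for all genes tested. Fitted to genes of at least 10 CPM alone, limma called 155 of 9349 genes higher in IPN and 203 lower. Of the members, Neo1 and Unc5d were called in that fit. The members were chosen with earlier results of these data known, so these shares are a description and not a test.

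Dcc, the classical receptor for netrin-1, had 751.89 CPM in IPN on E13.5, 427.36 CPM on E15.5 and 408.54 CPM on E16.5, against 121.49, 144.90 and 288.64 CPM in non-IPN on the same days. The values of the other genes below follow the same order of days. Its populations did not overlap across days, and both the highest IPN value and the lowest non-IPN value came from E13.5. The fitted log2 difference, IPN minus non-IPN, was 1.70 ± 0.33 (moderated SE of limma, 3 libraries per population, limma adjusted p = 0.0165). The log2 ratios of the 3 days had an SD of 1.03 on the scale of the fit. On single days the CPM ratio of IPN to non-IPN was 6.19-fold, 2.95-fold and 1.42-fold in the order of the days.

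Neo1 encodes neogenin, a relative of DCC that binds netrins and the repulsive guidance molecules. It had 237.53, 516.56 and 449.23 CPM in IPN, against 106.98, 193.67 and 291.11 CPM in non-IPN. IPN was the higher population on each day, but the E13.5 value of IPN lay below the E16.5 value of non-IPN. The fitted log2 difference was 1.2 ± 0.21 (SE, limma adjusted p = 0.0102), and the CPM ratios of the days, 2.22-fold, 2.67-fold and 1.54-fold, were closer together than those of Dcc.

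Dscam encodes a large adhesion molecule of the immunoglobulin family. It had 14.61, 143.25 and 38.64 CPM in IPN, against 3.72, 16.81 and 28.85 CPM in non-IPN. The E15.5 IPN library was far above the other 5, and IPN was higher on every day. The fitted log2 difference was 1.96 ± 0.45 (SE, limma adjusted p = 0.0411). This call sat close to the threshold and held in 4 of 16 alternatives. They were a pseudocount of 0.25 and the fits without the E16.5 pair or either of its libraries. Those leave-out fits all gave the same difference, 2.62. The call was lost with a pseudocount of 4 (limma adjusted p = 0.0821) and under both other scalings.

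Unc5d was the repulsive receptor that was called between the populations. It had 83.31, 119.02 and 187.20 CPM in IPN, against 7.22, 35.28 and 93.78 CPM in non-IPN. Both populations were lowest at E13.5 and highest at E16.5, and only the E16.5 non-IPN library reached the range of IPN. The fitted log2 difference was 2.23 ± 0.40 (SE, limma adjusted p = 0.0123), and the CPM ratios of the days were 11.54-fold, 3.37-fold and 2.00-fold.

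Unc5c, the repulsive receptor whose loss misplaces cells of the mouse cerebellum, ran the other way at the earlier days. It had 8.21, 8.70 and 61.22 CPM in IPN, against 65.15, 39.84 and 58.49 CPM in non-IPN. At E13.5 and E15.5 the IPN libraries lay below every non-IPN library, while at E16.5 IPN and non-IPN were at nearly the same level. The log2 ratios on the log2(value + 1) scale of the fit were -2.83, -2.14 and 0.28, and the fitted difference of -1.56 ± 0.51 did not pass (SE, limma adjusted p = 0.181). With 2 days left, the difference was -0.93 without the E13.5 pair (limma adjusted p = 0.556), -1.28 without the E15.5 pair (limma adjusted p = 0.694) and -2.49 without the E16.5 pair (limma adjusted p = 0.0139), the day on which IPN was not the lower.

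Unc5a and Unc5b were low in the amplified libraries. Unc5a had 2.52, 91.84 and 6.91 CPM in IPN, against 1.79, 23.79 and 3.66 CPM in non-IPN, with IPN the higher on each day. Its fitted log2 difference was 1.25 ± 0.50 (SE, limma adjusted p = 0.300). Unc5b, best known from blood vessels, had 2.26, 20.75 and 1.57 CPM in IPN, against 0.93, 21.56 and 0.56 CPM in non-IPN. The populations were close at E15.5, where the gene was highest, and the fitted log2 difference was 0.98 ± 0.67 (SE, limma adjusted p = 0.603). In GENCODE M21, exons of Unc5a overlap Hk3 on the opposite strand, and exons of Neo1, Unc5c, Ntn4 and Dscam overlap antisense genes. Whether reads were counted by strand is not given in the sources used here, so reads of such partners cannot be told apart in these 5 genes.

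The netrins among the members, Ntn1 and Ntn4, were low. Ntn1, the attractant of the floor plate, had 3.10, 0.52 and 0.68 CPM in IPN, against 0.72, 3.13 and 0.56 CPM in non-IPN. Ntn4, a netrin of basement membranes, had 0.97, 5.26 and 0.21 CPM in IPN, against 0.50, 12.28 and 0.48 CPM in non-IPN. Ntn1 was higher in IPN at E13.5 and E16.5 and lower at E15.5, and Ntn4 was higher in IPN at E13.5 and lower on both later days. The fitted log2 differences were 0.05 ± 0.98 for Ntn1 (SE, limma adjusted p = 1.0) and -0.32 ± 0.82 for Ntn4 (SE, limma adjusted p = 0.893).

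**Figure D2:**
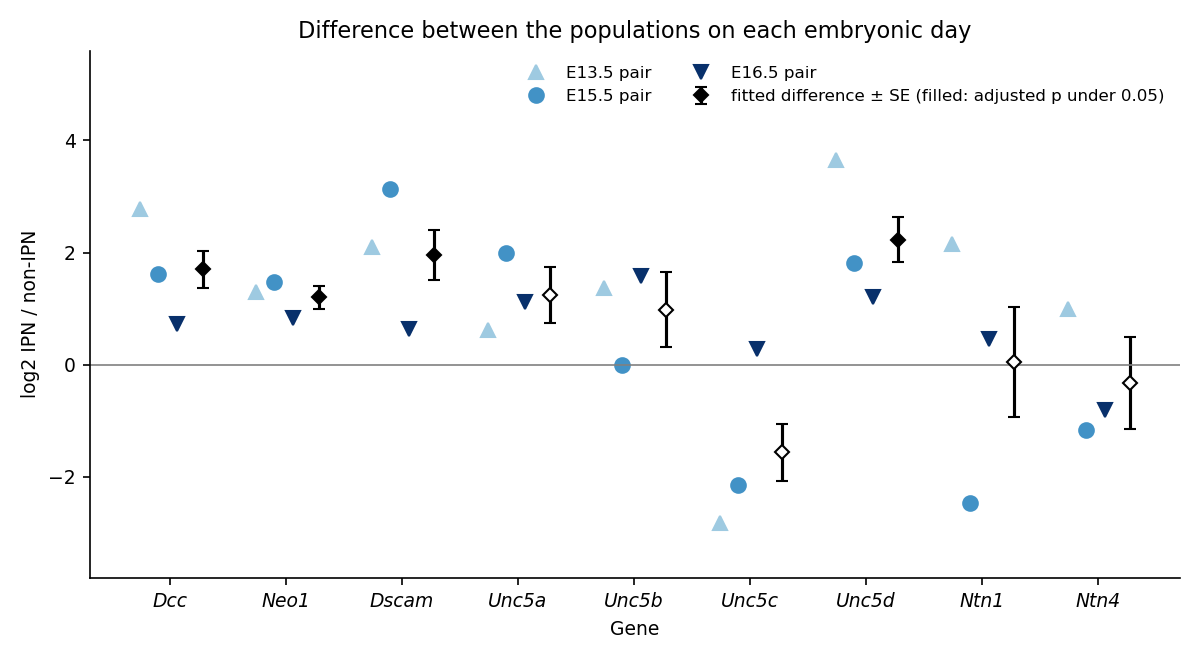
Log2 ratio of IPN over non-IPN, on the log2(value + 1) scale, for each gene on each embryonic day (triangles and circles), with the fitted difference and its standard error as diamonds, filled where the adjusted p was under 0.05. In the order of the days, Dcc lies at 2.77, 1.61 and 0.72, Unc5d at 3.66, 1.81 and 1.21, and Unc5c at -2.83, -2.14 and 0.28.

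The population difference narrowed with embryonic day for 2 of the 9 genes, Dcc and Unc5d. A term for population by embryonic day was called lower for 0.68% of all genes and higher for 0.624% (limma, 1 residual degree of freedom). For Dcc the log2 ratio changed by -0.67 ± 0.16 per day (SE, limma adjusted p = 0.0471), and for Unc5d by -0.83 ± 0.16 per day (SE, limma adjusted p = 0.0218). Unc5c moved the opposite way, by 0.94 ± 0.24 per day, and missed the threshold (SE, limma adjusted p = 0.0764). It passed with a pseudocount of 0.25 (adjusted p = 0.0473) and with scaling by column totals or by median of ratios. Dcc missed with a pseudocount of 4 (limma adjusted p = 0.0522) and with genes of at least 10 CPM alone (limma adjusted p = 0.0638). Without limma's trend and robust options, Dcc and Unc5d both missed (limma adjusted p = 0.406 and 0.404). Neo1, at -0.12 ± 0.16 per day, did not pass (SE, limma adjusted p = 0.758).

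The level of Dcc moved in both populations. On the log2(value + 1) scale, E16.5 minus E13.5 was -0.96 in IPN and 1.10 in non-IPN. Unc5d was at 1.09 in IPN and 3.53 in non-IPN, higher at E16.5 in both. Unc5c was at 2.81 in IPN and -0.31 in non-IPN, so the larger movement was that of IPN. The summed projection neuron markers of non-IPN also differed between these days, at 2524.9 CPM at E16.5 against 505.4 CPM at E13.5, and their part in these changes was not tested.

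Between the amplified days, Neo1 and Unc5d were higher at E16.5 than at E13.5, and no other member was called. Over all genes, 3.76% were called higher and 2.26% lower at E16.5 (the same limma fit, 2 residual degrees of freedom). Each age had 1 pair of libraries, so the p-values of this comparison hold no replication of age. Neo1 differed by 1.06 ± 0.26 on the log2 scale (SE, limma adjusted p = 0.0383) and Unc5d by 2.31 ± 0.49 (SE, limma adjusted p = 0.0242). Dscam, at 2.05 ± 0.55, missed the threshold (SE, limma adjusted p = 0.0557), although it was higher at E16.5 in both populations, by 1.32 in IPN and 2.78 in non-IPN. Dcc, with its opposite movements in the populations, had a fitted difference of 0.07 ± 0.40 (SE, limma adjusted p = 0.950). Both calls were lost with a pseudocount of 4 (adjusted p = 0.0587 for Neo1 and 0.0503 for Unc5d). They were also lost without either E15.5 library, without the non-IPN library of E13.5 and without that of E16.5, and Neo1 without the IPN library of E16.5 as well. With the non-IPN library of E13.5 left out, the difference of Unc5d was 1.23, and with the IPN library of E13.5 left out it was 3.38.

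Attractive and repulsive receptors can be set against each other within a library, where no scaling between libraries enters. The deposited value of Dcc was 7.80 times the sum of the 4 Unc5 genes in IPN and 1.62 times in non-IPN at E13.5. At E15.5 IPN had a ratio of 1.78 and non-IPN of 1.2, and at E16.5 IPN had 1.59 and non-IPN 1.84. Among the amplified libraries, IPN at E13.5 was the highest and the other 3 lay between 1.59 and 1.84. The sum holds Unc5a and Unc5b, whose E15.5 levels are described below with their GC content, so the ratio at E15.5 is not set against the other days. With Unc5c and Unc5d alone in the sum, a choice made after seeing the data, the ratio was 8.22, 3.35 and 1.64 in IPN and 1.68, 1.93 and 1.9 in non-IPN. The log2 difference of the ratio to all 4 Unc5 genes, IPN minus non-IPN, was 2.27, 0.56 and -0.21 over the 3 days, with a mean of 0.87 ± 1.27 (SD, n = 3 days). No test was made of this single value, since an exact permutation test of 3 pairs cannot give a two-sided p under 0.25.

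The same libraries differed in which Unc5 gene made up the Unc5 signal. Per kilobase, Unc5d made up 82.9% of the summed Unc5 level in IPN at E13.5, where Unc5c made up 7.8%. In non-IPN at E13.5 the order was turned round, with Unc5d at 9.7% and Unc5c at 82.9%. At E16.5 the populations were more alike: Unc5d took 71.0% and Unc5c 22.1% in IPN, and Unc5d took 59.1% and Unc5c 35.0% in non-IPN. At E15.5, Unc5a took 57.0% and Unc5d 32.0% in IPN, while in non-IPN Unc5a, Unc5b, Unc5c and Unc5d took 33.9%, 20.9%, 23.4% and 21.8%. In the 4 amplified libraries Unc5a stayed between 5.3% and 6.0%.

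**Figure D3:**
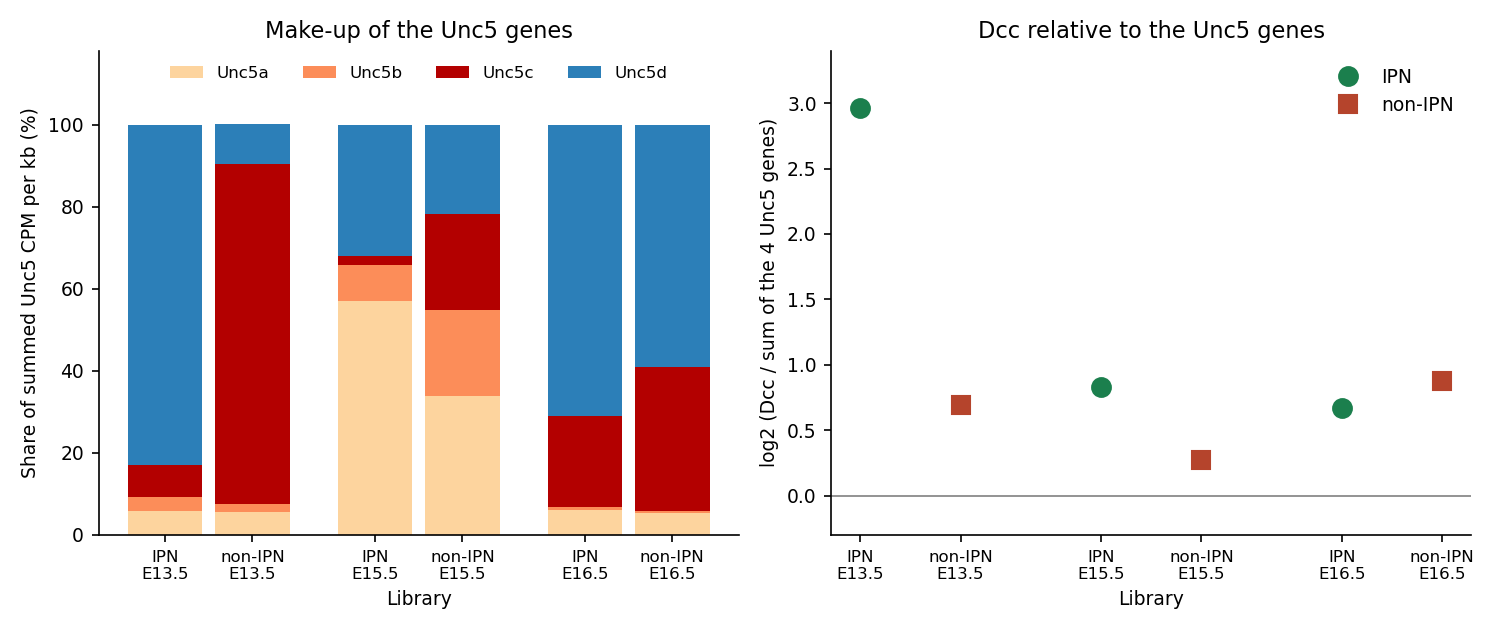
Left, the share of each Unc5 gene in the summed CPM per kb of the 4 Unc5 genes, in percent, for each library; right, log2 of Dcc over the sum of the 4 Unc5 genes in each library. Unc5d fills 82.9% of the bar of IPN at E13.5 and Unc5c 82.9% of the bar of non-IPN at E13.5, and the IPN point at E13.5 lies at 2.96, against 0.69 for non-IPN at E13.5.

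The E15.5 levels of Unc5a, Unc5b, Ntn4 and Dscam stood well above their amplified levels, and the GC content of the genes moved with this. The longest protein-coding transcript of Unc5a was 62.6% G or C, of Unc5b 58.7%, of Dscam 52.9% and of Ntn4 51.1% (GENCODE M21). On the log2(CPM + 1) scale their E15.5 libraries were above the amplified ones by 3.46, 3.31, 1.56 and 2.59 on average. Dcc, Unc5c and Unc5d, at 44.3%, 44.4% and 44.3%, were at -0.37, -0.96 and 0.15. Neo1, at 49.0%, was at 0.40, while Ntn1, at 57.8%, was at only 0.27. Over all genes with at least 10 CPM and a GC value (8487 of 9349, or 90.8%), the median of this difference was -0.47 below 45% GC, 0.03 from 45 to 50%, 0.88 from 50 to 55% and 1.96 above. The Spearman correlation between GC content and this difference was 0.62 across those genes and 0.83 across the 9 members, which share the same 6 libraries. The ratio of the populations within a day compares libraries made in the same way, whereas the make-up of the Unc5 genes mixes genes of low and high GC content and so cannot be compared between E15.5 and the other days.

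**Figure D4:**
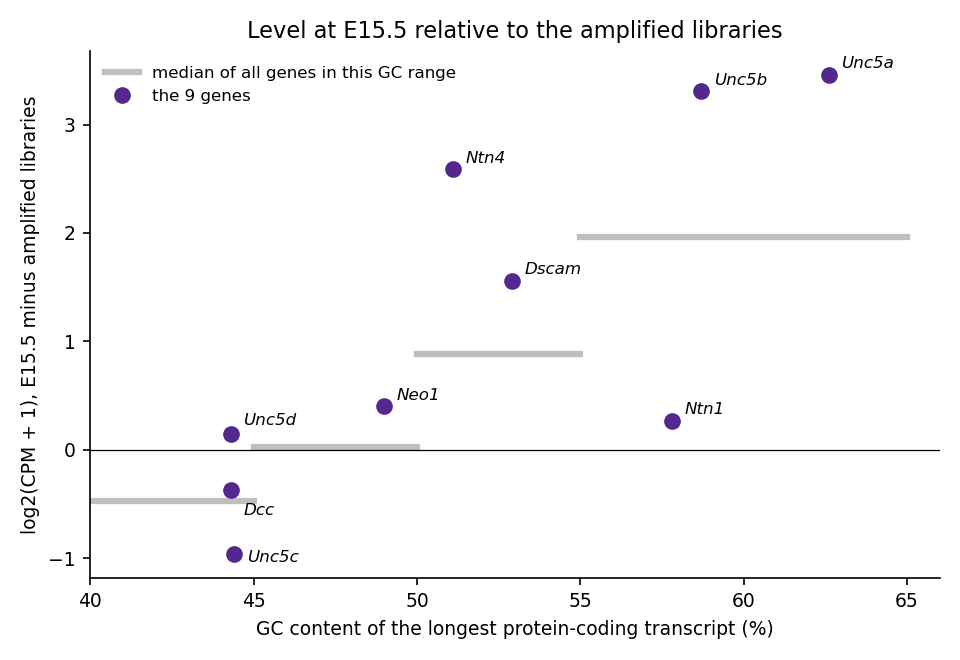
Mean log2(CPM + 1) at E15.5 minus that of the amplified libraries (vertical) against the GC content of the longest protein-coding transcript in percent (horizontal), 1 point per gene, with grey bars at the median of all genes in each GC range (the outer ranges are open). Unc5a and Unc5b, at 62.6% and 58.7% GC, lie at 3.46 and 3.31, and Dcc, Unc5c and Unc5d, near 44.3%, lie between -0.96 and 0.15.

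Several of the genes shared their profile over the 6 libraries. Pearson correlations of log2(CPM + 1), given as a description over 6 libraries, were 0.95 between Neo1 and Dscam, 0.94 between Neo1 and Unc5d, 0.78 between Dcc and Unc5d, and -0.68 between Dcc and Unc5c. The profiles most like that of Dcc among genes with at least 10 CPM were 1810046J19Rik (0.980), Fam190a (0.976) and Gap43 (0.974), a protein of growing axons. Closest to Neo1 were Atrnl1 (0.994), Frmd4b (0.991) and Enc1 (0.988). Unc5d was matched best by Lphn2 (0.992), 3110035E14Rik (0.990) and Pcdh9 (0.985), a protocadherin. Nearest to Unc5c were Nol11 (0.987), Ifit2 (0.985) and Mpped2 (0.961), all with their lowest values in IPN at E13.5 or E15.5. Unc5a was closest to Dyrk2 (0.999), Eno2 (0.997) and Nxph3 (0.996), and Dscam to Abcc8 (0.992) and 1110004E09Rik (0.979).

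The promoters of the pair with the most similar profiles, Neo1 and Dscam, and of Unc5c, the receptor that ran against Dcc, are shown from 250 bases before to 50 bases after the gene start, 5′ to 3′ on the strand of the gene (RefSeq, GRCm38.p6). Neo1 lies at chr9:59036392-59036691 on the minus strand, Dscam at chr16:97170686-97170985 on the minus strand, and Unc5c at chr3:141465314-141465613 on the plus strand.
Neo1: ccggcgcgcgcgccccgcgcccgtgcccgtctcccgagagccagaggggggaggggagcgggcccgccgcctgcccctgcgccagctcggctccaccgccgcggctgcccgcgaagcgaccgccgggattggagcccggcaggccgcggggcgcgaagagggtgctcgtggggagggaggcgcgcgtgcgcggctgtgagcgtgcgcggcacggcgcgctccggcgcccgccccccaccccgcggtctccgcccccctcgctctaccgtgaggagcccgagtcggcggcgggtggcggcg
Dscam: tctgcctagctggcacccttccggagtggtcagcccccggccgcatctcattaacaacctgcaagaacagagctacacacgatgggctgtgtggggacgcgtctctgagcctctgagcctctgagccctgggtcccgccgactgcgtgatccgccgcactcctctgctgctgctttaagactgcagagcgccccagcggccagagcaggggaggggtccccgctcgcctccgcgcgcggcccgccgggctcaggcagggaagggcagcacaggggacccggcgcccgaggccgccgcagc
Unc5c: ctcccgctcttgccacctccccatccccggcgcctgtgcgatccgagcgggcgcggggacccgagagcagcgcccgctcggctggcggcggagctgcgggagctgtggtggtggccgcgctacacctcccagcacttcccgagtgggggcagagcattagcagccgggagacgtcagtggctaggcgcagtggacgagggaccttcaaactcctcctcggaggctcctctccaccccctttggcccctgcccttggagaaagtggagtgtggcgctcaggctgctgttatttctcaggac
All 3 were rich in G and C, at 82.7% for Neo1, 70.0% for Dscam and 68.3% for Unc5c, with 54, 26 and 24 CpG dinucleotides. Neither the E-box CANNTG, the motif of proneural and NeuroD factors, nor TCACAC, a core motif of T-box factors such as Tbr2, was found on either strand in the promoters of the 6 members in the table (Neo1, Unc5a, Unc5b, Unc5c, Ntn4 and Dscam). Among 32851 promoters of the same length, 72.31% held CANNTG and 14.49% TCACAC. They were not matched to the 6 promoters in GC content, so these shares give no expected value for the 6. The promoters of Dcc, Unc5d and Ntn1 were not searched. These letters are a description of this window only.

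Of 51 other genes of the netrin pathway, 1 was called higher in IPN (1.96%, against 0.982% of all genes) and 2 lower (3.92%, against 2.41%; limma adjusted p under 0.05), with a median log2 difference of 0.20, against -0.02 for all genes tested.

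The 2 genes that were lower in IPN were the DSCAM relative Dscaml1 and the adaptor Nck1. Dscaml1 had 9.11, 62.02 and 22.71 CPM in IPN, against 18.74, 296.19 and 64.13 CPM in non-IPN. It was lower in IPN on each day, with a log2 difference of -1.46 ± 0.31 (SE, limma adjusted p = 0.0276), while Dscam was higher. Nck1, which binds the tail of DCC, had 19.33, 5.66 and 8.14 CPM in IPN, against 48.55, 23.32 and 27.74 CPM in non-IPN. Its populations did not overlap, and its log2 difference was -1.57 ± 0.36 (SE, limma adjusted p = 0.0423). Bcl11b, a factor of subcerebral neurons, was not called at 1.07 ± 0.32 (SE, limma adjusted p = 0.123).

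Pathway genes called between E16.5 and E13.5 were mostly higher at E16.5. Of the 51 genes, 13 were higher at E16.5 (25.5%, against 3.76% of all genes) and 1 was lower (1.96%, against 2.26%), with a median log2 difference of 0.44, against 0.00 for all genes tested. Most of the 51 genes averaged at least 10 CPM, unlike many of all genes. Fitted to genes of at least 10 CPM alone, limma called 792 of 9349 higher, a larger share than over all genes. Among the 22 intracellular effectors of DCC, 8 were higher (36.4%) and none was called lower. They included the ubiquitin ligases Trim67 (3.12 ± 0.27, limma adjusted p = 0.000924) and Trim9 (2.62 ± 0.38, limma adjusted p = 0.00521), both known to bind DCC, and the exchange factor Trio (1.10 ± 0.26, limma adjusted p = 0.0337). The netrin-G genes Ntng1 (5.14 ± 0.98, limma adjusted p = 0.0154) and Ntng2 (3.89 ± 0.85, limma adjusted p = 0.0268), which encode membrane-bound relatives that do not act through DCC, were higher as well. Both were near 0 at E13.5 and low at E16.5. Ntng1 went from 0.19 to 5.47 CPM in IPN and from 0.07 to 9.70 CPM in non-IPN. Ntng2 went from 0.39 to 4.31 CPM in IPN and from 0.00 to 1.83 CPM in non-IPN. In the E15.5 libraries, made without amplification, Ntng2 had 105.31 CPM in IPN and 13.97 CPM in non-IPN. Ntng1 had 1.35 CPM in IPN and 1.31 CPM in non-IPN there. Robo3, a receptor of commissural axons that works with DCC, was lower, with a log2 difference of -5.21 ± 1.15 (SE, limma adjusted p = 0.0270) and values of 0.07 CPM in IPN and 0.08 CPM in non-IPN at E16.5, against 8.60 CPM in IPN and 2.86 CPM in non-IPN at E13.5.

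For the term of population by embryonic day, limma called 0 of the 51 pathway genes, and 10 of them had an unadjusted p under 0.05 (19.6%, against 16.7% of all genes). Flrt2, the ligand of UNC5D, had 347.92, 182.18 and 349.65 CPM in IPN, against 90.67, 132.69 and 351.58 CPM in non-IPN. Its populations met at E16.5, and its term of -0.65 ± 0.16 per day missed the threshold (SE, limma adjusted p = 0.0548). Bcl11b, at 464.52, 706.61 and 288.57 CPM in IPN and 115.63, 397.55 and 294.60 CPM in non-IPN, was at -0.65 ± 0.15 per day (SE, limma adjusted p = 0.0505).

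The calls between populations rest on few libraries. Without the E15.5 pair, 0 of the 9 genes were called (limma, 4 at an unadjusted p under 0.05, with 54 genes called in all), while the log2 differences of Dcc, Neo1, Dscam and Unc5d were 1.75, 1.07, 1.37 and 2.44. Without the E13.5 pair, or without its IPN library alone, Neo1 and Unc5d were called, at 1.16 and 1.51. Without the non-IPN library of E13.5, Dcc was called as well, at 1.17. Without the E16.5 pair or either of its libraries, Dcc, Neo1, Dscam, Unc5d and Unc5c were called.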

How the data were processed

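RNA sequencing values were analysed for 6 libraries, 1 per population and embryonic day. Per the submitters' processing notes, the authors used CASAVA 1.9, TopHat 1.2.0, SAMtools 0.1.18 and edgeR, with mm9 as the build. What each tool did, which annotation served and how values were scaled is not given in the sources used here. The deposited files pair symbols with whole numbers, treated as a scaled signal and not as raw counts, because their upper quartile was 1501 to 1501.5 at E15.5 and 438 to 444 in the 4 amplified libraries. The design allowed for counts, and the test it gave for normalized values was used.

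The files were joined by symbol. Dropping 6 of 20373 rows (3 symbols listed more than once) left 20367 genes. Testing covered the 19561 with a value over 0 in any library. Limma 3.58.1 (R 4.3.3), with its trend and robust options, was fitted to log2(value + 1), so fold changes of low genes are understated. Population and embryonic day as factors gave both differences, with 2 residual degrees of freedom and a median prior of 8.3. Population by embryonic day as a number left 1, with a prior of 14.5. P-values were adjusted by Benjamini-Hochberg at 0.05. Each SE of a fit is moderated: limma draws the variance of a gene toward that of other genes. It is therefore not the gene's own SE over the days. On the scale of the fit, the SD of the 3 day ratios was 1.03 for Dcc, 0.32 for Neo1 and 1.26 for Dscam. It was 1.28 for Unc5d and 1.64 for Unc5c. Day pairs the populations, since, per the labels' protocols, both colors were sorted out of the dissociated cortices of double-reporter embryos. The days are the only replication. The p-values use the moderated variance, in which the prior (8.3 or 14.5) outweighs the residual degrees of freedom (2 or 1). They therefore reflect the spread over days of other genes more than that of the gene itself.

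Lengths and GC content came from GENCODE M21 on GRCm38, used for no coordinates of the files. The fit of the population difference was also run on simulated data with planted differences equal on all days. The noise was drawn from the fit's own moderated variances, so this run cannot show how calls depend on the prior. Alternatives were other pseudocounts, scalings, a filter, limma options, no day term and leaving out libraries; leave-out fits used genes above 0 in a complete pair. Named were all 9 members, pathway genes called in either difference or among the 3 most abundant of their list, and the 3 most similar profiles per member of at least 10 CPM. Bcl11b and Flrt2 fall under this rule, and 2 genes that it names are not reported here. The members and lists were chosen with earlier results of these data known.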

Additional observations from a re-analysis of the deposited data

Results flagged for a closer look

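Dcc and Unc5d were marked because their population difference changed with embryonic day in the test of that change itself, by -0.67 per day for Dcc and -0.83 per day for Unc5d on the log2 scale. Unc5c was marked because IPN was the lower population at E13.5 and E15.5 and the higher at E16.5, with 3.11 between its highest and lowest log2 ratio. Ntn1, with 4.62 between its highest and lowest log2 ratio, and Ntn4, with 2.17, also changed sign between days, at low levels. For Unc5c, Ntn1 and Ntn4 the change with day did not pass (limma adjusted p = 0.0764, 0.569 and 0.574), and the change of sign itself was not tested.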

How the results depend on the processing

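Of the 9 genes, 4 were called between the populations, 2 between E16.5 and E13.5 and 2 for population by embryonic day, and the calls of all genes were 664, 1178 and 255. With genes of at least 10 CPM on average, 2 members (Neo1 and Unc5d) and 358 genes were called between the populations, and 1 member and 135 genes for population by day. Limma without its trend and robust options called 0 members and 0 genes in each comparison, with 1946, 3414 and 2321 genes at an unadjusted p under 0.05. The fit without the day term, which drops the pairing of the populations (no replicate block), called 0 members and 0 genes between the populations (676 genes unadjusted), and Dcc had an adjusted p of 0.911. With a pseudocount of 4, 0 members and 769 genes were called between the days and 1 member for population by day. Population by day gave 483 genes with a pseudocount of 0.25, 1445 with scaling by column totals and 1558 by median of ratios. Column totals moved the median log2 difference of all genes between the populations to -0.15, against -0.02, and Dcc, Neo1 and Unc5d were called under both of these scalings and Dscam under neither.

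Leaving out libraries gave 0 to 5 members and 18 to 600 genes between the populations, and 0 to 2 members and 65 to 2085 genes between the days. The lowest counts came without an E15.5 library (18 without non-IPN, 74 without IPN, 54 without both). Between the days, 258 and 70 genes were called without the IPN and the non-IPN library of E16.5, and 2085 and 948 without those of E13.5. A single library left on a day adds nothing to the spread. The log2 ratio of Dcc over the Unc5 genes, IPN minus non-IPN, ran from 0.18 to 1.42 over left-out pairs, and was 0.96 with Unc5c and Unc5d alone in the sum, an alternative chosen after seeing the data.

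Dcc, Neo1, Dscam and Unc5d kept their sign between the populations in all 16 alternatives and were called in 8, 11, 4 and 11. These alternatives are not separate checks. The filter, the limma options and dropping the day term leave the difference itself unchanged. Leaving out either library of a day gives the same difference as leaving out its pair. Signs turned as follows. Between the populations Ntn1 was at -0.01 with a pseudocount of 4, at -0.05 with column totals and at -1.0 to 1.31 over left-out libraries, and Ntn4 at 0.10 without E15.5 libraries. Between the days, left-out libraries gave -0.74 to 0.87 for Dcc, -0.13 to 2.63 for Unc5c and -2.88 to 0.27 for Ntn1. The causes were not tested. CPM ratios per day moved by less than 1 SD of the 3 day ratios in 54 of 54 recomputations, without hemoglobin genes or per upper quartile. Such a rescaling shifts the log2 ratios of all genes on a day by the same amount. Per upper quartile, Dcc at E16.5 moved from 0.50 to 0.72, against an SD of 1.06. The count therefore says little about single genes. For population by day no library could be left out, as no residual degrees of freedom would remain.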
